A study of Mus musculus with 12 samples.

Results

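The small leucine-rich proteoglycans are secreted core proteins built from leucine-rich repeats. 9 of them were followed in mouse fibroblasts that carried a lentiviral PPARγ2 transgene: Ogn, Lum, Dcn, Bgn, Fmod, Aspn, Omd, Podn and Prelp. Every probe that the platform annotation assigns to one of these symbols was taken, 16 probes of 45281 on the array, for 9 genes of 19057. 6 of the 9 genes had a probe detected above the negative controls (detection p under 0.05) on at least 3 arrays and were tested, with 11 of their probes kept. They stood among 13006 tested features, of which 10082 had a gene symbol.

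The cells were NIH-3T3, an established line of mouse embryonic fibroblasts. All carried lentiviral PPARγ2 and were kept in blasticidin, high-glucose DMEM and fetal bovine serum. The 4 groups of 3 arrays were E157D receptor with rosiglitazone, E157D receptor with DMSO, wild-type receptor with rosiglitazone, and wild-type receptor with DMSO. PPARγ2 is the fat-cell isoform of a nuclear receptor that binds DNA together with RXR, and E157D replaces a glutamate by an aspartate in its DNA-binding domain. Rosiglitazone is a thiazolidinedione that activates PPARγ. It was used at 20 µM over 24 h, with DMSO as its vehicle. The labels speak of 3 independent experiments. Whether each receptor was introduced once or in every experiment is not stated in the labels, so receptor and transduced population cannot be told apart. No cells without a PPARγ2 transgene were analysed here.

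Small leucine-rich proteoglycans coat collagen fibrils, set fibril diameter and spacing, and hold growth factors such as TGF-β in the matrix. Decorin, biglycan and asporin form class I, of which decorin and biglycan carry chondroitin or dermatan sulfate chains. Lumican, fibromodulin, osteomodulin and PRELP form class II, with keratan sulfate or tyrosine sulfate on several members. Osteoglycin belongs to class III and podocan to a later class. Connective tissue fibroblasts are a main source of decorin, biglycan and lumican. Conversion of fibroblasts to fat cells is known to replace a fibrillar matrix by a basement membrane.

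Values are log2 intensities after background correction and quantile normalization, so a difference of 1 is a doubling. A gene is represented by its brightest kept probe, and a call is a Benjamini-Hochberg adjusted p under 0.05 from limma over all 13006 features. Errors on log2 changes are standard errors. Between 36.7% and 39.6% of probes were detected per array. Within a group, arrays correlated at 0.988 to 0.994, and 0 pairs were identical. Precision is limited by having 3 arrays per group, and where the 3 experiments did not use separate cultures the p-values measure technical spread. The 3 Pparg probes were detected on 0 arrays, so the array gives no level of the transgene, whose transcript these probes need not cover. Under rosiglitazone Adipoq, an adipokine gene, had a fitted rise of 1.40 ± 0.15 with E157D (adjusted p = 0.000317). With the wild-type receptor it rose by 3.34 ± 0.15 (adjusted p = 9.03e-08). Adipoq was detected on 0 of the 3 E157D DMSO arrays, so the size of its rise with E157D was not measured. Over the alternatives that fitted rise went down to 0.429. Plin2, a lipid droplet coat gene, rose by 1.93 with E157D and by 1.91 with the wild-type receptor. All 7 fibroblast markers on the array were detected on all 12 arrays. Their summed linear level, which includes Col1a1 and Col1a2, was 32100 to 38800 in E157D rosiglitazone cells, 44600 to 47100 in E157D DMSO cells, 23500 to 28800 in wild-type rosiglitazone cells and 42600 to 44300 in wild-type DMSO cells. Summed levels of 5 adipocyte markers, of which 0 were detected on all 12 arrays, were 261 to 316, 137 to 139, 1860 to 2470 and 187 to 221 in the same groups. All such sums include a constant added in processing and the readings of undetected markers. A small sum is therefore partly background, and ratios of sums are not ratios of expression. The 5 chondrocyte markers, of which Sox9 was detected on every array and Acan on 0, summed to 7760 to 8690, 9500 to 11800, 4910 to 7320 and 9280 to 12700. Ptprc, Adgre1, Itgam, Pecam1, Kdr, Tek, Epcam, Krt5, Sp7, Ibsp, Scx, Tnmd, Myod1 and Actc1 were detected on 0 arrays. They mark leukocytes and endothelial, epithelial, bone, tendon and skeletal muscle cells. The leukocyte marker Cd14 and the tendon marker Mkx were detected on all 12. Detected on some arrays only were endothelial Cdh5, epithelial Cdh1 and Krt14, muscle Myog and Des, and the further bone markers on the array. The summed level of 4 epithelial markers was 115 to 128 in E157D rosiglitazone cells, 120 to 133 in E157D DMSO cells, 212 to 226 in wild-type rosiglitazone cells and 124 to 145 in wild-type DMSO cells. That of 3 tendon markers was 395 to 432, 432 to 542, 304 to 382 and 438 to 580 in the same groups. Fewer cells of a type and less RNA per cell cannot be told apart in such samples, and the part of these marker shifts in the results below was not tested.

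7 of the 9 genes have a promoter entry in the RefSeq table (GRCm38.p6), and Dcn and Lum are named only. The windows of Ogn and Prelp are shown because these genes carry the contrast between the receptors described below, and that of Omd because it is the neighbour of Ogn. Each holds 300 bases, 250 before and 50 after the start that the table uses, read 5′ to 3′ on the gene's strand. Ogn lies at chr13:49607765-49608064 (plus strand), Omd at chr13:49582212-49582511 (plus strand) and Prelp at chr1:133921352-133921651 (minus strand). The windows of Ogn and Omd lie at the outer start of the gene, while that of Prelp lies inside the gene's annotated span, chr1:133910304-133930102, so the sequence before its outermost start was not searched. Capitals mark letters that match a searched motif on either strand.
Ogn promoter: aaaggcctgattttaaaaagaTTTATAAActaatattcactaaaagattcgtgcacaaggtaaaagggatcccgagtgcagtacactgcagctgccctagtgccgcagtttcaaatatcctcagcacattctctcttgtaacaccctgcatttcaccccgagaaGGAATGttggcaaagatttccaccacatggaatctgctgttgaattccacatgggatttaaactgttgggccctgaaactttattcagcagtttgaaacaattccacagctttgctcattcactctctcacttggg
Omd promoter: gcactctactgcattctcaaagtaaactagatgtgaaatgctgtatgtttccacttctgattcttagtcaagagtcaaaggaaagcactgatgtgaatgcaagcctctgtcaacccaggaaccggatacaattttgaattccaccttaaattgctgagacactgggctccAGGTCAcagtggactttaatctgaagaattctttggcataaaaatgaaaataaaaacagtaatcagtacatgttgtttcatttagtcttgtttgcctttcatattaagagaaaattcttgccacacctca
Prelp promoter: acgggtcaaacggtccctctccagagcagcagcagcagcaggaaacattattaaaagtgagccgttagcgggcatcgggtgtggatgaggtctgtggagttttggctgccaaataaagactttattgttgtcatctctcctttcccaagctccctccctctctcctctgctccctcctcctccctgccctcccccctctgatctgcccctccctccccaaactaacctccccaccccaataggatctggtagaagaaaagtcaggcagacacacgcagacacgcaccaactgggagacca
The motifs searched on both strands were AGGTCA, the direct repeat that PPAR and RXR bind (2 copies of that element with any 1 base between them), GGAATG of TEAD factors, TATAAA, and the CArG box of serum response factor. Ogn held GGAATG at position -86, counted from the start, and overlapping TATAAA matches on opposite strands at -229 and -227. Omd held AGGTCA at -80, and Prelp held none of these motifs. Over 32841 promoter windows of this length, 16.3% held AGGTCA, 14.7% GGAATG, 13.6% TATAAA, 1.63% a CArG box and 0.0396% the direct repeat. These matches describe letters in a window and say nothing of binding. Ogn and Omd are neighbours on chromosome 13, in the order Ecm2, Aspn, Omd, Ogn. Dcn and Lum are neighbours on chromosome 10, followed by Kera and Epyc, and Prelp lies between Optc and Fmod on chromosome 1.

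The levels of the tested genes spanned nearly the whole range of the array. Bgn had rank 85 of 45281 probes by mean level, the brightest Dcn probe rank 217, Prelp 4509, Ogn 7516 and Lum 7618. Omd, at rank 19127, was detected on the 3 arrays of E157D DMSO cells and on 0 of the other 9 arrays. Ranks are of probes, whose brightness is not comparable between genes.

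**Figure D1:**
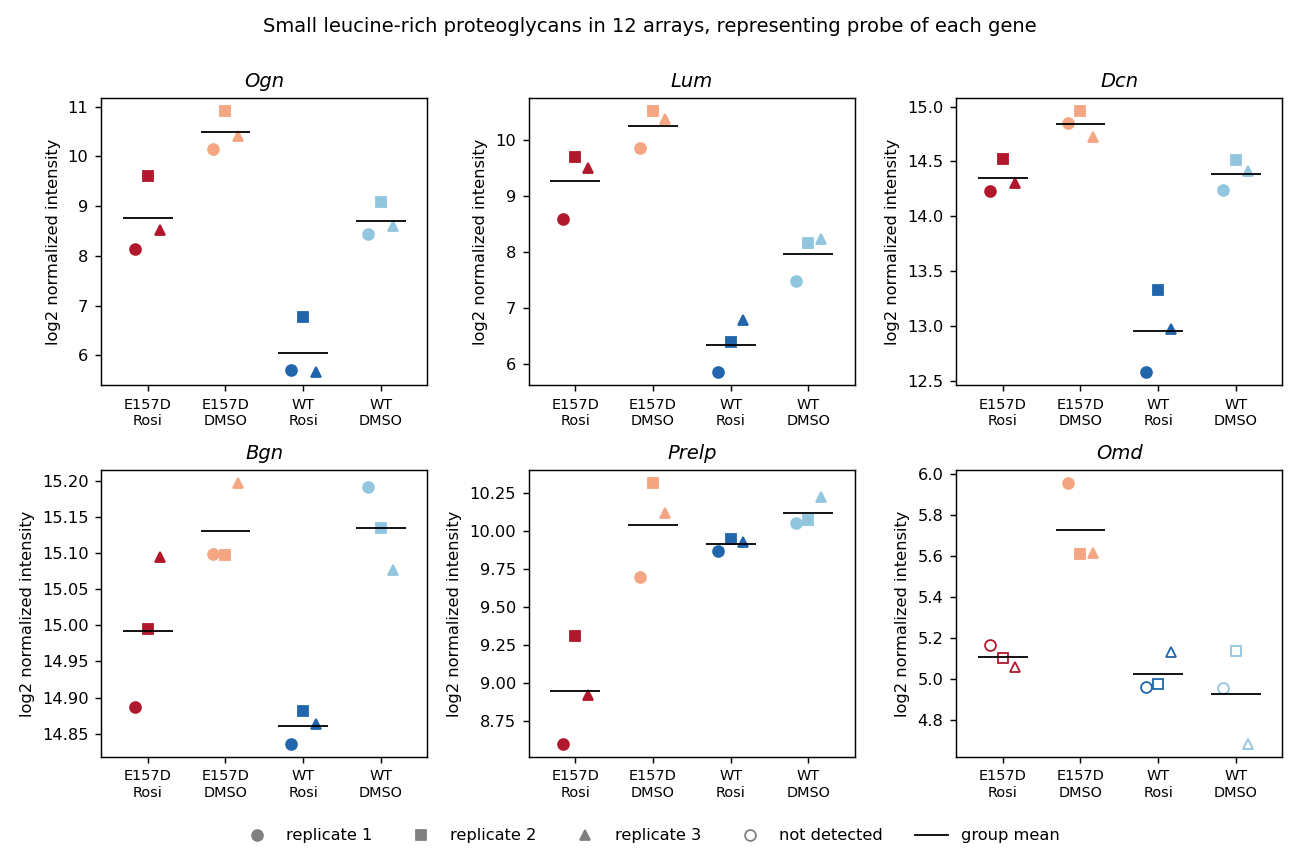
Log2 normalized intensity (vertical axis, own scale in each panel) of the representing probe of 6 small leucine-rich proteoglycan genes in the 4 groups (horizontal axis). Points are arrays, shaped by replicate number and open where not detected, and bars are group means. Ogn, Lum and Dcn were lowest in wild-type rosiglitazone cells, Prelp was lowest in E157D rosiglitazone cells, and Omd was detected only in E157D DMSO cells.

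Ogn encodes osteoglycin, also called mimecan, a class III member found in bone, cornea and vessel walls. It read 8.14, 9.60 and 8.53 in E157D rosiglitazone cells, replicates 1 to 3, against 10.14, 10.91 and 10.42 in E157D DMSO cells. In wild-type receptor cells it read 5.71, 6.77 and 5.66 with rosiglitazone, against 8.44, 9.09 and 8.60 with DMSO. The drug groups did not overlap with either receptor, while E157D rosiglitazone cells lay across the values of wild-type DMSO cells. Replicate 2 was the highest array in all 4 groups. With E157D, Ogn fell by 1.73 ± 0.38 under rosiglitazone, or 3.32-fold (adjusted p = 0.0261), the second lowest change of all features. With the wild-type receptor it fell by 2.66 ± 0.38, or 6.32-fold (adjusted p = 0.000435), the lowest change of the 13006. Between receptors it was higher with E157D by 2.71 ± 0.38 in rosiglitazone (6.54-fold, adjusted p = 0.000446) and by 1.78 ± 0.38 in DMSO (3.44-fold, adjusted p = 0.0477). The call in DMSO was lost without any single array of the 6 compared, with adjusted p up to 0.201. The E157D drug response lost its call without E157D DMSO replicate 2 or 3 or E157D rosiglitazone replicate 1 or 3, with adjusted p up to 0.11. These values rest on 1 of 3 Ogn probes. The probe ILMN_2740622 was detected on 3 arrays, 1 of E157D rosiglitazone and 2 of E157D DMSO, and ILMN_2859619 on 0. The changes of ILMN_2740622 were -0.30 with E157D and -0.25 with the wild-type receptor, neither of them called.

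Lum encodes lumican, the class II keratan sulfate proteoglycan that spaces collagen fibrils in the cornea and skin. It read 8.60, 9.70 and 9.50 in E157D rosiglitazone cells, against 9.87, 10.52 and 10.38 in E157D DMSO cells. With the wild-type receptor it read 5.86, 6.40 and 6.78 with rosiglitazone, against 7.49, 8.17 and 8.23 with DMSO. The 4 groups did not overlap, and every E157D array lay above every wild-type array. Replicate 1 was the lowest array in all 4 groups. E157D cells held more Lum signal by 2.92 ± 0.32 in rosiglitazone, or 7.56-fold (adjusted p = 7.39e-05), and by 2.29 ± 0.32 in DMSO, or 4.89-fold (adjusted p = 0.00356). The difference in DMSO was the second highest of the 13006 features. Under rosiglitazone Lum fell by 1.61 ± 0.32 with the wild-type receptor, or 3.06-fold (adjusted p = 0.00331). Its change with E157D was -0.99 ± 0.32 (95% confidence interval -1.68 to -0.29), which was not called (adjusted p = 0.117). That change was called with the authors' processed values, without background correction and with replicate number fitted as a block. The other kept probe, ILMN_2773259, was detected on 11 arrays. It was also called higher in E157D cells, by 2.21 in rosiglitazone (adjusted p = 0.00299) and by 2.17 in DMSO (adjusted p = 0.0268). Its drug changes were -0.98 with E157D (adjusted p = 0.238) and -1.02 with the wild-type receptor (adjusted p = 0.0897), so this probe does not give the wild-type call of the brighter probe.

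Dcn encodes decorin, a class I proteoglycan that binds type I collagen and TGF-β. It read 14.23, 14.53 and 14.30 in E157D rosiglitazone cells, against 14.85, 14.96 and 14.72 in E157D DMSO cells. In cells with the wild-type receptor it read 12.58, 13.32 and 12.97 with rosiglitazone, against 14.24, 14.51 and 14.41 with DMSO. Wild-type rosiglitazone cells lay apart below the other groups, and E157D rosiglitazone cells overlapped wild-type DMSO cells. Dcn fell by 1.43 ± 0.17 on the log2 scale under rosiglitazone with the wild-type receptor, or 2.69-fold (adjusted p = 0.000135). With E157D its change was -0.49 ± 0.17 (95% confidence interval -0.86 to -0.12, adjusted p = 0.141), which was not called. As for Lum, it was called with the authors' processed values, without background correction and with the replicate block. In rosiglitazone Dcn was 2.63-fold higher in E157D cells than in wild-type receptor cells (log2 1.40 ± 0.17, adjusted p = 0.000162), and the difference in DMSO was 0.46 ± 0.17 (adjusted p = 0.317).

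Dcn has 4 probes, all detected on all 12 arrays. In wild-type receptor cells the 3 dimmer probes fell under rosiglitazone by 1.75, 1.77 and 2.16, each called and each by more than the brightest probe. In E157D cells the probe ILMN_2604695 fell by 1.32 (adjusted p = 0.00498), while the changes of the others were -0.93 and -0.70, with adjusted p of 0.0882 and 0.0686. The probes therefore differ on whether Dcn responded with E157D. In rosiglitazone all 4 were higher in E157D cells, the dimmer 3 by 1.83, 1.80 and 1.83. In DMSO the differences of these 3 were 1.01, 0.73 and 0.99, with adjusted p of 0.131, 0.119 and 0.0501.

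**Figure D2:**
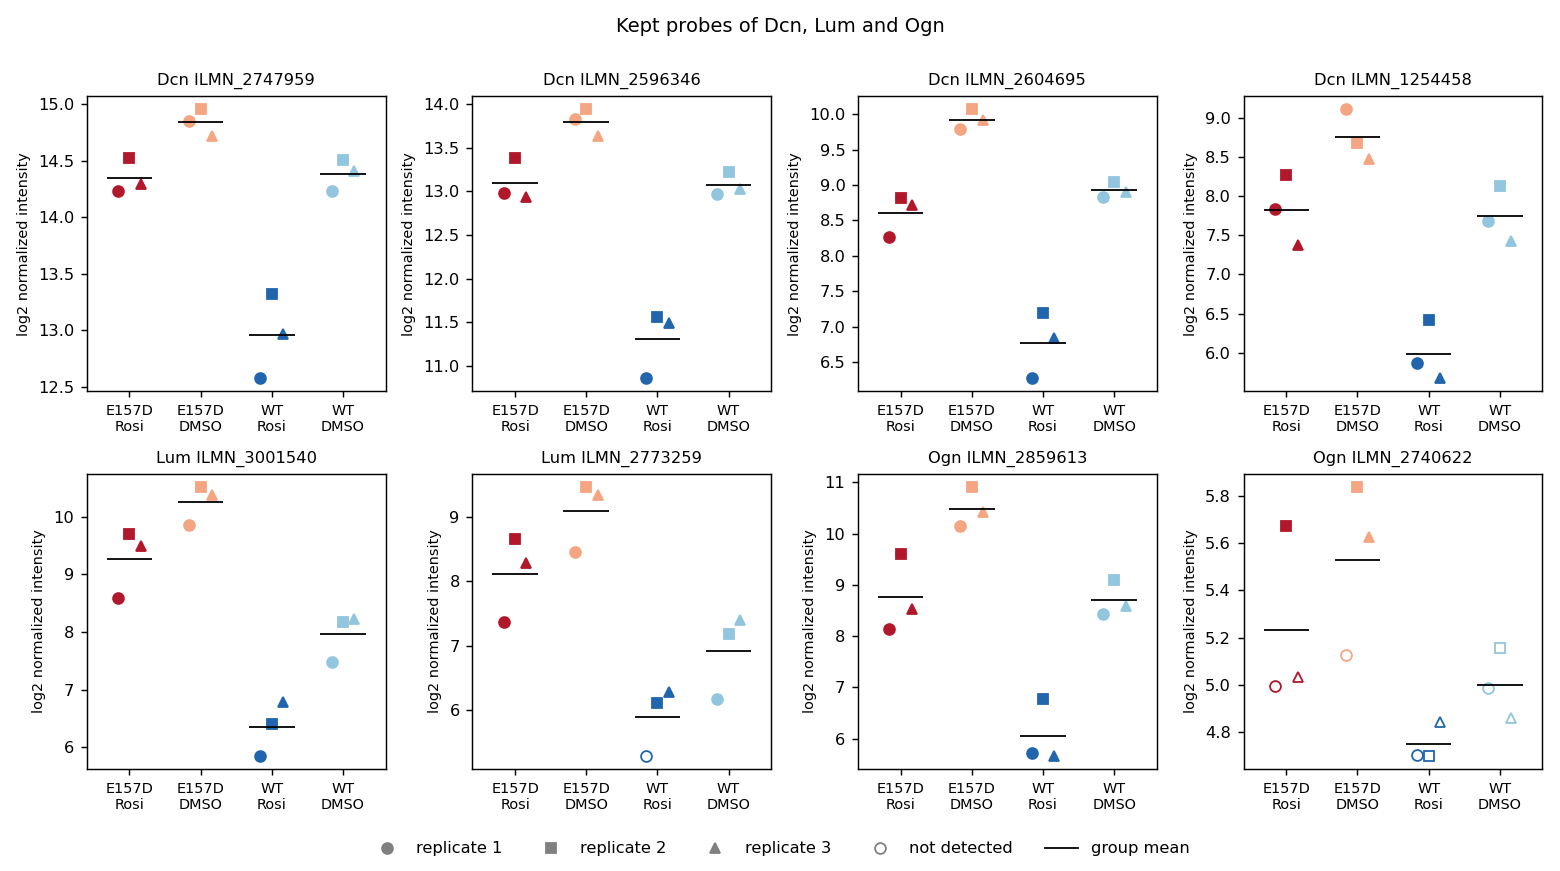
Log2 normalized intensity (vertical axis, own scale in each panel) of every kept probe of Dcn (4), Lum (2) and Ogn (2) in the 4 groups. Points are arrays, shaped by replicate number and open where not detected, and bars are group means. Every Dcn and Lum probe was lowest in wild-type rosiglitazone cells and highest in E157D DMSO cells, and the dim Ogn probe was detected on 3 arrays.

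Bgn encodes biglycan, the class I relative of decorin, and was the brightest member. It read 14.89, 14.99 and 15.09 in E157D rosiglitazone cells, against 15.10, 15.10 and 15.20 in E157D DMSO cells. In wild-type receptor cells it read 14.84, 14.88 and 14.86 with rosiglitazone, against 15.19, 15.14 and 15.08 with DMSO. With the wild-type receptor it fell by 0.27 ± 0.09 (adjusted p = 0.0488), and leaving out any single array of that comparison ended this call, with adjusted p of up to 0.231 over all alternatives. The change with E157D was -0.14 ± 0.09 (adjusted p = 0.472). The receptors differed by 0.13 in rosiglitazone (adjusted p = 0.363), and in DMSO both means were 15.13 (adjusted p = 0.997). The highest log2 value on any array was 15.4, so this probe lies near the top of the measured range.

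Prelp encodes PRELP, a class II protein with a basic end that binds heparan sulfate and links basement membranes to collagen. It read 8.60, 9.31 and 8.92 in E157D rosiglitazone cells, against 9.70, 10.32 and 10.11 in E157D DMSO cells. Under the wild-type receptor it read 9.86, 9.95 and 9.92 with rosiglitazone, against 10.05, 10.07 and 10.22 with DMSO. Every E157D rosiglitazone array lay below all other arrays, whereas for Ogn, Lum and Dcn the wild-type rosiglitazone arrays were lowest. With E157D, Prelp fell by 1.10 ± 0.18 under rosiglitazone, or 2.14-fold (adjusted p = 0.00546). With the wild-type receptor its change was -0.21 ± 0.18 (95% confidence interval -0.60 to 0.19, adjusted p = 0.449). In rosiglitazone it was 1.95-fold lower in E157D cells than in wild-type receptor cells (log2 change -0.97 ± 0.18, adjusted p = 0.00327). In DMSO the receptors differed by -0.08 ± 0.18 (adjusted p = 0.95). The test of the difference between the 2 drug responses gave -0.89 ± 0.26 (adjusted p = 0.102), which was not called.

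Omd encodes osteomodulin, a class II keratan sulfate proteoglycan of mineralized tissue. It read 5.17, 5.10 and 5.06 in E157D rosiglitazone cells, against 5.96, 5.61 and 5.62 in E157D DMSO cells. In wild-type receptor cells it read 4.96, 4.98 and 5.13 with rosiglitazone, against 4.95, 5.14 and 4.68 with DMSO. The E157D DMSO arrays were the only ones above detection, so the other groups give only a bound. In E157D cells Omd was at least 1.26-fold lower with rosiglitazone than with DMSO (fitted adjusted p = 0.0258). In DMSO it was at least 1.21-fold higher with E157D than with the wild-type receptor (fitted adjusted p = 0.0129). Its 1 probe entered the test because of the group in which it was high, so it is left out of the counts below. The drug call was lost without any single E157D array, with the authors' processed values and without background correction, with adjusted p of up to 0.179. The receptor call was lost with those values, without background correction, in the fit of only the groups compared and without wild-type DMSO replicate 3, with adjusted p of up to 0.126.

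Fmod, Aspn and Podn were not tested. Of the 2 probes of Fmod, fibromodulin, which binds collagen and lysyl oxidase, ILMN_2999762 was detected on 1 array of wild-type DMSO cells and ILMN_1230020 on 0. The probes of Aspn, asporin, and of Podn, podocan, were detected on 0 arrays, with lowest detection p of 0.126 and 0.325. An undetected probe bounds its signal at the level of the negative controls and does not show that the gene is silent. Of 9 further genes of the same repeat family, 7 have a probe. Kera, Epyc, Optc, Chad, Nyx and Ecm2 were detected on 0 arrays, and Podnl1 was tested.

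Podnl1 encodes a podocan-like protein. It read 7.95, 7.28 and 7.54 in E157D rosiglitazone cells, against 7.42, 7.56 and 7.55 in E157D DMSO cells. In wild-type receptor cells it read 6.12, 6.25 and 6.30 with rosiglitazone, against 7.24, 7.36 and 7.16 with DMSO. Like Dcn, it was lowest in wild-type rosiglitazone cells. It fell by 1.03 ± 0.15 under rosiglitazone with the wild-type receptor (adjusted p = 0.000496), and its change with E157D was 0.08 ± 0.15. In rosiglitazone it was higher with E157D by 1.37 ± 0.15 (adjusted p = 7.56e-05). The difference of the 2 drug responses, 1.11 ± 0.21, was called (adjusted p = 0.0182), but not without E157D DMSO replicate 1 or wild-type DMSO replicate 2 (adjusted p up to 0.0506). Its other kept probe, ILMN_2524657, was detected on 9 arrays and gave 0.35 for this difference (adjusted p = 0.658).

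**Figure D3:**
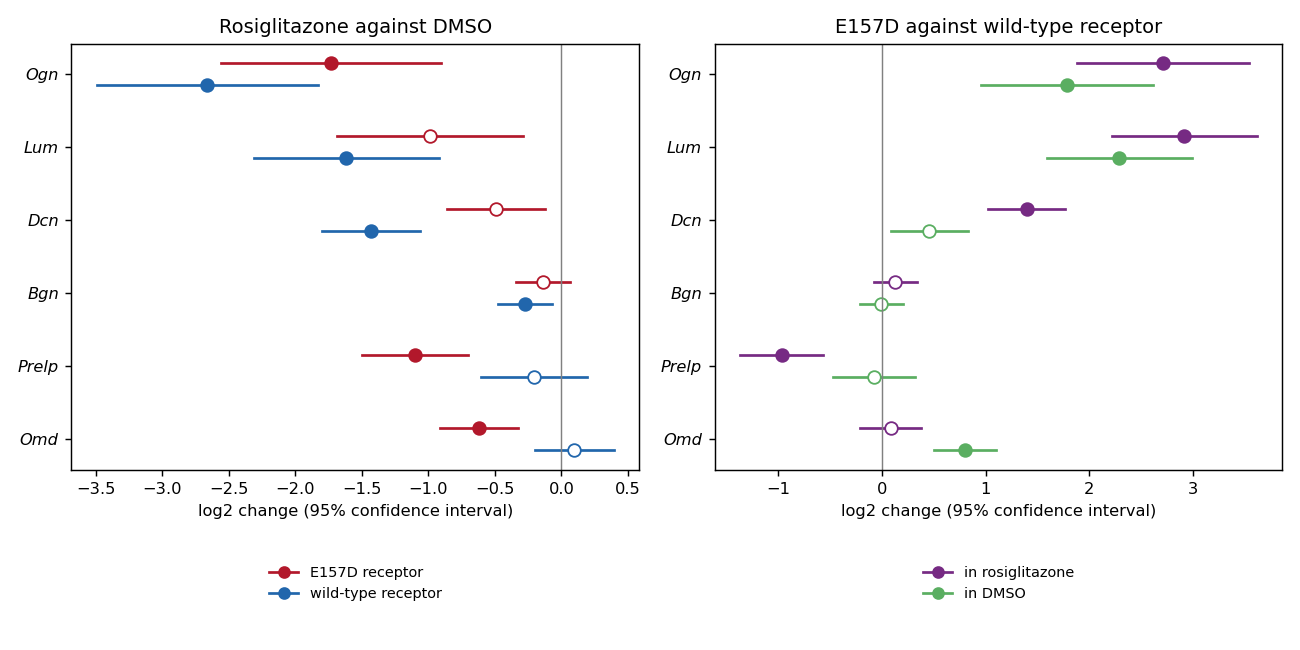
Log2 change (horizontal axis) with its 95% confidence interval for 6 genes, rosiglitazone against DMSO with each receptor (left) and E157D against wild-type receptor in each treatment (right). Filled points are called at an adjusted p under 0.05. Ogn, Lum and Dcn lie below 0 on the left and above 0 on the right, Prelp lies below 0 for E157D with drug, and the filled Omd points rest on 3 arrays above detection.

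Rosiglitazone with the E157D receptor was accompanied by a fall of Ogn and Prelp, 2 of the 5 genes detected on all 12 arrays, against 1.79% of all features called lower. None of the 5 was called higher, against 2.31% of features. Lum and Dcn were called lower too with the authors' processed values, without background correction and with the replicate block. The median change of the 5 was -0.988, and that of all features was -0.0121. All 5 had E157D rosiglitazone values that did not overlap those of E157D DMSO cells and lay below them, a pattern that 12.8% of features had.

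Rosiglitazone with the wild-type receptor was accompanied by a fall of 4 of these 5 genes, Ogn, Lum, Dcn and Bgn, against 14.4% of all features called lower. None was called higher, against 12.3%. The median change was -1.43, beside -0.0294 over all features. All 5 had rosiglitazone values below their DMSO values with no overlap, as did 22% of features. Both drug responses are measured within 1 receptor, and their members' values stand side by side above: Ogn -1.73 with E157D and -2.66 with the wild-type receptor, Lum -0.99 and -1.61, Dcn -0.49 and -1.43, Bgn -0.14 and -0.27, Prelp -1.10 and -0.21.

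The difference of the drug responses, E157D minus wild-type, was called for 0 of the 5 genes detected on all arrays with limma, against 0.884% of features called higher and 1.5% lower. Of the 5, Dcn was higher and Prelp lower at an unadjusted p under 0.05. Both were called in the same directions with the authors' processed values (adjusted p = 0.0382 for Dcn and 0.0318 for Prelp) and without background correction (0.0112 and 0.0322). They were also called with the replicate block (adjusted p = 0.0207 for Dcn and 0.045 for Prelp). Dcn came closest, at 0.94 ± 0.24 (95% confidence interval 0.42 to 1.46, adjusted p = 0.0676). These Dcn values are of its brightest probe. The dimmer probe ILMN_2596346 gave 1.07 (adjusted p = 0.0696) and was called under the same alternatives. The probes ILMN_2604695 and ILMN_1254458 gave 0.84 and 0.82 (adjusted p = 0.204 and 0.344). Neither was called under any alternative, and their lowest values were 0.236 and 0.153. Ogn gave 0.93 ± 0.54 with an interval of -0.24 to 2.10 (adjusted p = 0.445), and Lum 0.63 ± 0.45 with an interval of -0.36 to 1.61 (adjusted p = 0.554). With the authors' processed values these 2 differences were -0.0185 for Ogn and -0.0178 for Lum, and without background correction -0.0394 and -0.0420. A weaker fall with E157D is therefore not shown for Ogn or Lum at this number of arrays, nor is an equal one. Bgn gave 0.14 (adjusted p = 0.681).

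E157D against the wild-type receptor in DMSO gave higher Lum and Ogn, 2 of the 5 genes detected on all arrays, against 0.423% of features called higher. None of the 5 was called lower, against 0.7% of features. The median difference of the 5 was 0.457, beside 0.00666 over all features. Ogn, Lum and Dcn did not overlap between the receptors, all higher with E157D, as were 8.7% of features. In rosiglitazone, Ogn, Lum and Dcn were called higher and Prelp lower with E157D, 4 of 5, against 10.5% of features called higher and 9.26% lower. The median difference was 1.40, beside 0.0247 over all features. The values of all 5 did not overlap between the receptors, with 4 higher and Prelp lower in E157D cells, as held for 19.8% and 16.4% of features. The receptor comparison in rosiglitazone shares its arrays with both drug responses, so these calls are not independent of them.

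Over the 12 arrays, log2 values of Ogn correlated with those of Dcn at r = 0.967 and of Lum at 0.926, and Lum with Dcn at 0.898. Prelp stood apart, at 0.0929 with Ogn, -0.136 with Lum and -0.00778 with Dcn. These are descriptions over 12 points that share the 4 groups. Within groups the picture was another: deviations from the group means correlated at 0.775 for Ogn with Dcn, 0.723 for Ogn with Prelp and 0.756 for Lum with Prelp. The same replicate numbers carry those deviations, with replicate 1 lowest in all 4 groups for both Lum and Prelp.

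Among named genes the closest in pattern over the 12 arrays, by Pearson correlation of log2 values, were Scarf2 (0.975), Nuak2 and Sertad4 for Ogn, and Itgb5 (0.977), an integrin subunit gene, B3galnt1 and the growth factor gene Igf2 for Lum. For Dcn they were P3h3 (0.985), a prolyl hydroxylase of collagen, Runx1t1 and Myo1e. Bgn was closest to Brd9 (0.963), Ube2e3 and Smad5, and Omd to Fam168a (0.92), Hdac2 and Prrc2c. Omd was detected on only 3 of the 12 arrays, so its correlations rest mostly on background readings. Prelp was closest to Gpc4 (0.957), a glypican that carries heparan sulfate, to Csgalnact1 (0.927) and to Ifi27 (0.9).

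Counts for the gene lists that follow stand beside shares over all features of 2.31% called higher and 1.79% lower under rosiglitazone with E157D, and 12.3% and 14.4% with the wild-type receptor. For E157D against the wild-type receptor the shares were 10.5% and 9.26% in rosiglitazone, and 0.423% and 0.7% in DMSO. The first list holds genes that build the chains of these proteoglycans. Of 18 tested genes of glycosaminoglycan chain assembly, 1 was called higher and 1 lower under rosiglitazone with E157D, or 5.56% each. With the wild-type receptor 1 was higher and 3 lower, or 5.56% and 16.7%, the latter near the 14.4% of all features. The medians were -0.13 with E157D and -0.09 with the wild-type receptor. Csgalnact1, which starts chondroitin sulfate chains, read 8.32, 8.75 and 8.41 in E157D rosiglitazone cells, against 9.27, 9.47 and 9.36 in E157D DMSO cells. It read 9.46, 9.68 and 9.53 in wild-type rosiglitazone cells, against 9.79, 9.88 and 10.02 in wild-type DMSO cells. It fell with E157D by 0.88 ± 0.13 (adjusted p = 0.00309) and in rosiglitazone was lower with E157D than with the wild-type receptor, at -1.06 ± 0.13 (adjusted p = 0.000163). E157D rosiglitazone cells were thus the lowest group for both Prelp and Csgalnact1. Pxylp1, which removes a phosphate from the linkage sugar xylose, fell by 1.24 ± 0.16 with the wild-type receptor (adjusted p = 0.000252), but its other kept probe, ILMN_1253926, detected on 3 arrays, gave -0.15 (adjusted p = 0.735). The sulfotransferase gene Chst12 fell by 0.94 ± 0.13 with the wild-type receptor (adjusted p = 0.000296). Chst11, another chondroitin sulfotransferase gene, rose by 0.89 ± 0.15 with E157D (adjusted p = 0.00653) and by 0.91 ± 0.15 with the wild-type receptor (adjusted p = 0.00126). Its other kept probe, ILMN_1215528, rose with the wild-type receptor by 1.08, and its change with E157D was 0.54 (adjusted p = 0.128).

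Of 10 genes for keratan sulfate and tyrosine sulfation, 5 were tested. Chst1, which sulfates keratan sulfate, read 6.33, 6.40 and 6.62 in E157D rosiglitazone cells and 5.92, 6.10 and 5.83 in E157D DMSO cells, against 8.95, 8.55 and 8.75 in wild-type rosiglitazone cells and 8.57, 8.23 and 8.15 in wild-type DMSO cells. It was lower with E157D by a log2 change of -2.30 ± 0.15 in rosiglitazone (adjusted p = 8.79e-07) and -2.37 ± 0.15 in DMSO (adjusted p = 4.16e-06). Lum, a carrier of keratan sulfate, lay the other way, higher in E157D cells in both treatments. Without background correction the Chst1 difference in DMSO was -1.15, still called. Tpst1, a protein tyrosine sulfotransferase gene, was higher with E157D in rosiglitazone by 1.09 ± 0.11 (adjusted p = 4.21e-05). It read 12.34, 12.26 and 12.28 in E157D rosiglitazone cells, against 11.20, 11.23 and 11.18 in wild-type rosiglitazone cells.

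**Figure D4:**
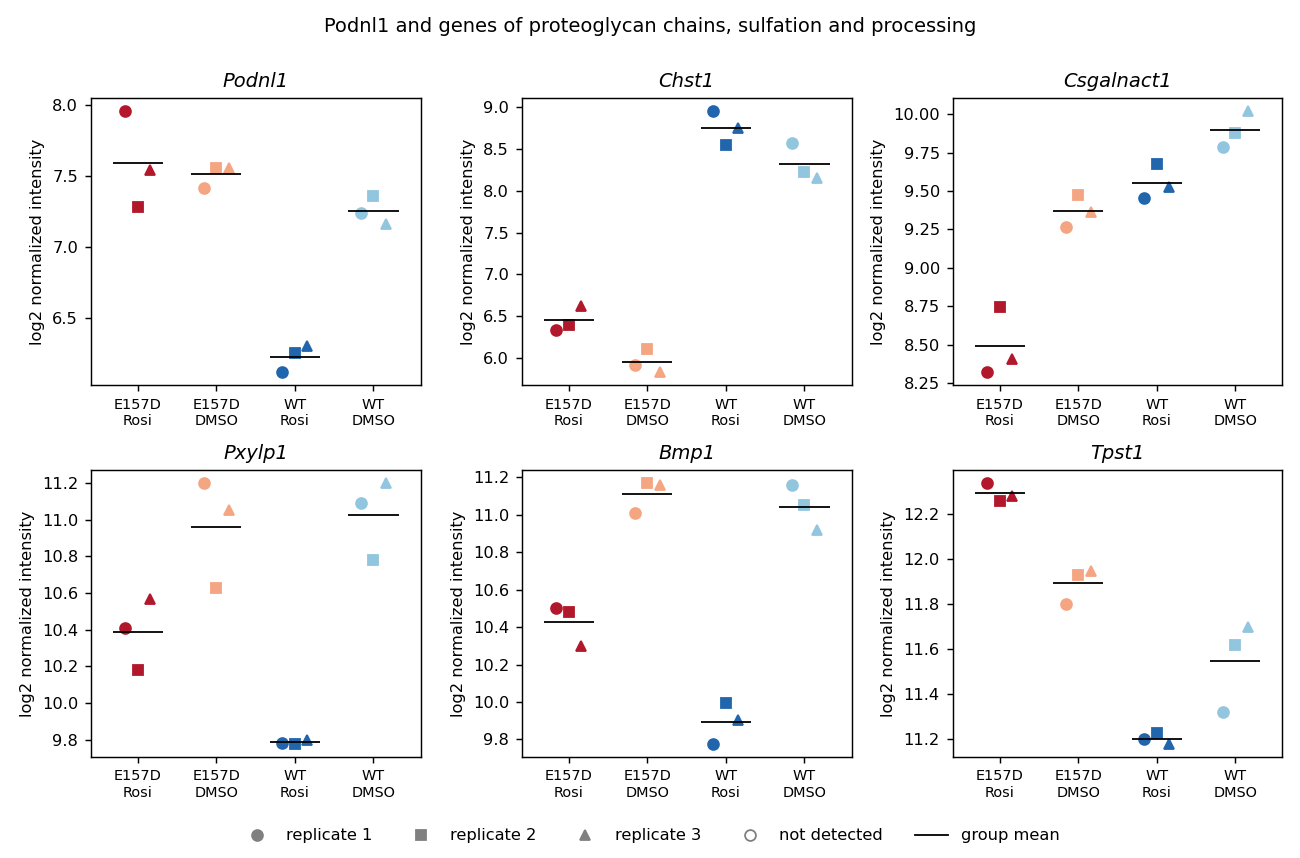
Log2 normalized intensity (vertical axis, own scale in each panel) of Podnl1 and 5 genes of proteoglycan chains, sulfation and processing in the 4 groups. Points are arrays, shaped by replicate number, and bars are group means. Chst1 was low in all 6 E157D arrays, Csgalnact1 was lowest in E157D rosiglitazone cells, and Podnl1, Pxylp1, Bmp1 and Tpst1 were lowest in wild-type rosiglitazone cells.

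The collagens that these proteoglycans coat, and the enzymes that cut or cross-link them, had calls in 1 direction under rosiglitazone. Of 13 tested fibrillar collagen and fibril partner genes, 0 were higher and 2 lower with E157D, or 15.4% lower, and 0 higher and 8 lower with the wild-type receptor, or 61.5% lower, with medians of -0.23 and -0.69. Lox, the collagen cross-linking enzyme, fell by 0.60 with E157D (adjusted p = 0.0445) and by 1.22 with the wild-type receptor (adjusted p = 0.000171). Fn1, fibronectin, fell by 0.91 (adjusted p = 0.0428) and by 1.45 (adjusted p = 0.00072) in the same order. The 3 other kept Fn1 probes were called lower with the wild-type receptor, and their changes with E157D, -1.05, -0.65 and -0.64, were not called (adjusted p of 0.113 to 0.197). Both E157D calls were lost without any single E157D array, with adjusted p up to 0.175 for Lox and 0.167 for Fn1 over all alternatives. Col1a1 was higher with E157D in rosiglitazone by 1.09 ± 0.17 (adjusted p = 0.00107). The list had 9 higher and 0 lower in that comparison, or 69.2% higher, against 10.5% of all features higher and 9.26% lower. The 9 include Postn, detected on 0 wild-type rosiglitazone arrays and 1 wild-type DMSO array. Postn passed the filter through the E157D groups, in which it was high, so its call there carries no weight. Thbs1, also among the 9 and the 8, was detected on 0 wild-type rosiglitazone arrays, so its size of change is only bounded. In DMSO 0 genes of the list were called, against 0.423% of all features called higher and 0.7% lower.

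Of 8 tested genes for proteases and their enhancers, 0 were higher and 2 lower under rosiglitazone with E157D, or 25% lower, and 0 higher and 6 lower with the wild-type receptor, or 75% lower. Without wild-type rosiglitazone replicate 1 the wild-type count was 3, and without E157D DMSO replicate 1 or 2 or E157D rosiglitazone replicate 1 the E157D count was 1. Over all alternatives the counts were 1 to 4 with E157D and 3 to 8 with the wild-type receptor. Bmp1, the proteinase that removes the propeptide of biglycan and of procollagen, read 10.50, 10.48 and 10.30 in E157D rosiglitazone cells, against 11.01, 11.17 and 11.16 in E157D DMSO cells. It read 9.78, 10.00 and 9.90 in wild-type rosiglitazone cells, against 11.16, 11.05 and 10.92 in wild-type DMSO cells. It fell by 0.69 ± 0.11 with E157D (adjusted p = 0.00418) and by 1.15 ± 0.11 with the wild-type receptor (adjusted p = 3.33e-05). Of its 3 other kept probes, ILMN_1255558, detected on 6 arrays, went the other way with the wild-type receptor, at 0.46 (adjusted p = 0.0244).

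Decorin and biglycan bind TGF-β, and 14 genes of TGF-β ligands, receptors and binding proteins were tested. Under rosiglitazone 0 were higher and 3 lower with E157D, or 21.4% lower, and 0 higher and 8 lower with the wild-type receptor, or 57.1% lower. With median scaling the E157D count was 1. Tgfbi, a matrix protein induced by TGF-β, fell by 0.79 ± 0.14 with E157D (adjusted p = 0.00693) and by 1.60 ± 0.14 with the wild-type receptor (adjusted p = 1.76e-05). Ccn2, another such target, fell by 1.26 ± 0.19 (adjusted p = 0.00331) and by 1.53 ± 0.19 (adjusted p = 0.000171) in the same order. In rosiglitazone 9 of the 14 were higher with E157D and 0 lower, or 64.3% higher, against 10.5% and 9.26% of all features. The count was 5 without E157D rosiglitazone replicate 2 or 3. Ltbp1, which stores latent TGF-β in the matrix, read 8.45, 8.64 and 8.55 in E157D rosiglitazone cells, against 6.67, 5.78 and 6.67 in wild-type rosiglitazone cells, a difference of 2.18 ± 0.22 (adjusted p = 3.94e-05).

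Of 12 tested core protein genes of other proteoglycans, 0 were higher and 2 lower under rosiglitazone with E157D, or 16.7% lower, and 0 higher and 6 lower with the wild-type receptor, or 50% lower. With median scaling the wild-type count was 3. Sdc2, a syndecan, fell by 0.78 ± 0.13 with the wild-type receptor (adjusted p = 0.00143), and Hspg2, the basement membrane core protein perlecan, by 0.60 ± 0.11 (adjusted p = 0.00238). Between receptors in rosiglitazone 4 of the 12 were higher and 2 lower with E157D, or 33.3% and 16.7%, against 10.5% and 9.26% of all features. These 6 calls were 3 without E157D rosiglitazone replicate 3, without wild-type rosiglitazone replicate 1 and in the fit of only the groups compared. Sdc1, another syndecan, was higher with E157D by 0.72 ± 0.12 (adjusted p = 0.00175). Gpc1, a glypican, was 2-fold lower with E157D (adjusted p = 0.00173), and the syndecan gene Sdc3 was lower too, at -0.66 ± 0.17 (adjusted p = 0.0187). The 2 E157D calls, Sdc3 and Agrn, had adjusted p of 0.0398 and 0.0492. With 1 array left out the count was 0 to 2, and over all alternatives 0 to 5.

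**Figure D5:**
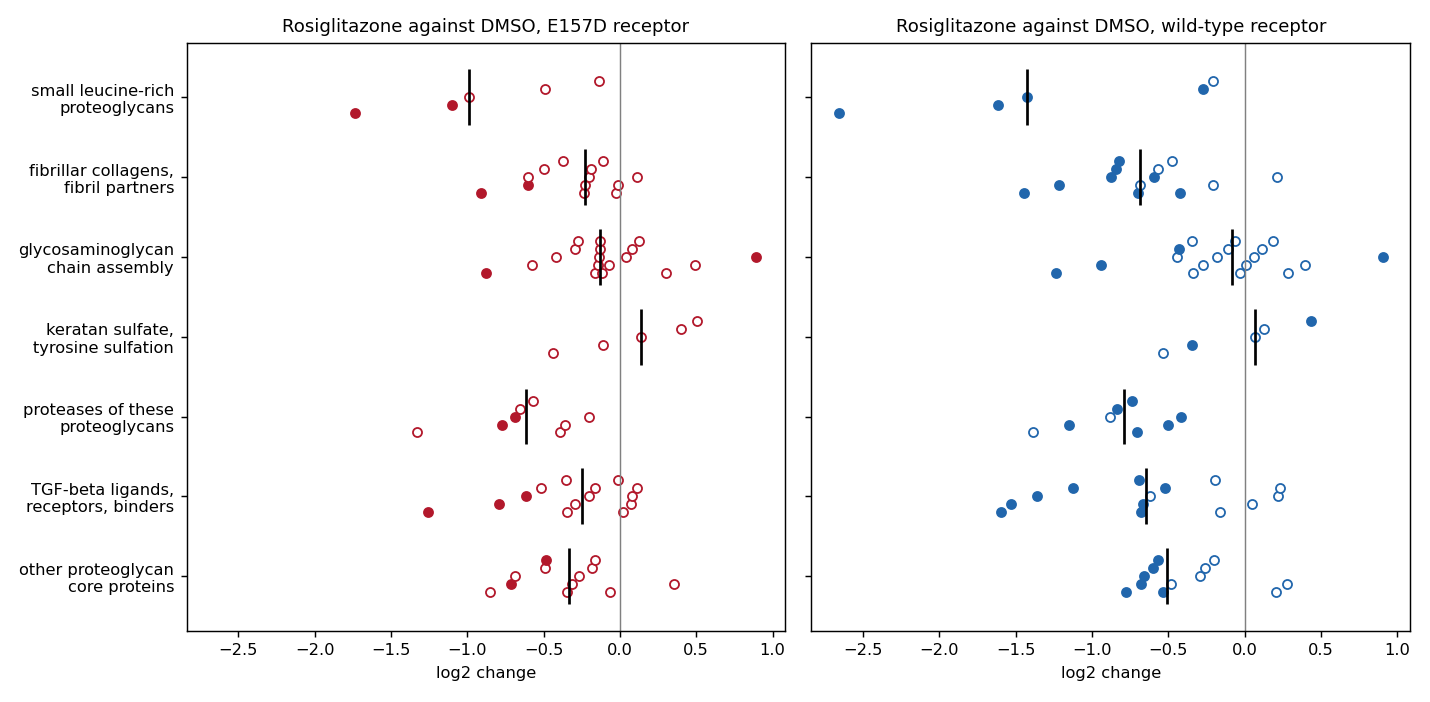
Log2 change under rosiglitazone against DMSO (horizontal axis) with the E157D receptor (left) and the wild-type receptor (right), for the 5 small leucine-rich proteoglycan genes detected on all arrays and for 6 gene lists. Points are genes, filled where called at an adjusted p under 0.05, and the black bars are list medians. Of the genes shown, Ogn lies furthest below 0, at -1.73 with E157D and -2.66 with the wild-type receptor, and chain assembly genes lie on both sides of 0.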

How the data were processed

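Total RNA of 12 NIH-3T3 cultures was labelled with biotin and hybridised to 1-colour Illumina bead arrays, per the labels. Per the file headers, the deposited table gives every array's intensity at 45281 probes beside its detection p-value, and the arrays are not normalized to each other. The lowest deposited intensity was 107. The deposited table of processed intensity values, made by a method the labels do not state, served as an alternative.

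Intensities were corrected with normexp, whose negative-control level was read back from the detection p-values, given an offset of 16, quantile-normalized and taken as log2 (neqc, limma 3.58.1, R 4.3.3). Quantile normalization hides a shift common to all genes. A detection p under 0.05 on 3 or more arrays kept 18921 probes. The platform annotation gives 1 symbol to 34885 probes, several to 18 and none to 10378. The brightest kept probe stands for its gene, and other probes come from a fit of all kept probes. lmFit and eBayes fitted 4 group means (8 residual and 3.9 prior degrees of freedom), with Benjamini-Hochberg adjustment over 13006 features. Where a whole group was undetected, the change is a bound, taken against the lowest detected value of each array or, if higher, the probe's own. The script was tested on simulated arrays.

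The members and gene lists were chosen with earlier results of these data known. All members are named, with up to 4 called genes per list and comparison. Promoters came from the RefSeq table. Same-numbered arrays' deviations from group means correlated at 0.129 to 0.239 between the 2 wild-type receptor groups. The numbers therefore pair those arrays, as seen in the data and not in the labels. A block for replicate number changed no member call there. Over all groups such correlations were 0.0171 to 0.255, and the main fit holds no block. The block added member calls for rosiglitazone with E157D and for the difference of responses. Alternatives varied the background correction, normalization, detection filter, groups fitted, probes, source of values, replicate block and each array left out.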

Additional observations from a re-analysis of the deposited data

Results flagged for a closer look

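3 genes of the lists, and 0 of the 6 tested members, had drug responses that differed between the receptors by the test of the difference itself, E157D minus wild-type. Podnl1, the podocan-like relative, differed by 1.11 (adjusted p = 0.0182), and its other kept probe by 0.35. Tpst1, the tyrosine sulfotransferase gene, differed by 0.75 (adjusted p = 0.0296), a call lost with median scaling and without most single arrays, with adjusted p up to 0.198. Ltbp1, the latent TGF-β binding protein gene, differed by 1.35 (adjusted p = 0.0435), with adjusted p up to 0.106 when single arrays were left out or the detection filter was dropped.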

How the results depend on the processing

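Of 420 recomputed member changes, 362 kept their direction and side of the threshold, 33 lost the call, 14 gained it and 11 turned direction. Calls of Ogn, Lum and Dcn under rosiglitazone with the wild-type receptor, of Ogn, Lum, Dcn and Prelp between receptors in rosiglitazone, of Lum between receptors in DMSO and of Prelp under rosiglitazone with E157D held, for the representing probes, under every alternative run. Without background correction changes of dim probes shrank, to -1.36 for Ogn and -0.77 for Lum under rosiglitazone with the wild-type receptor. For the difference of the drug responses the members called numbered 2 with the authors' values, with no background correction and with the replicate block (Dcn higher, Prelp lower), and 0 to 1 with single arrays left out. The Dcn calls there are of its brightest probe, and not all Dcn probes gave them. For rosiglitazone with E157D, 3 as reported with Omd, they numbered 5 with the replicate block, which added Lum and Dcn, and 1 to 2 with single arrays left out, and for the receptors in DMSO 1 to 2. Lum and Dcn gained the call with E157D also with the authors' values and without background correction. Changes that turned direction ended close to 0. The difference of responses, 0.93 for Ogn and 0.63 for Lum as reported, was -0.0185 and -0.0178 with the authors' values. Without background correction it was -0.0394 for Ogn and -0.0420 for Lum. The receptor difference in DMSO was 0.0769 for Bgn and 0.0525 for Prelp with median scaling, and with arrays left out -0.0367 to 0.0254 for Bgn and -0.212 to 0.0977 for Prelp. Omd gave -0.0235 to 0.203 with arrays left out for rosiglitazone with the wild-type receptor. The causes were not tested. Over all features the replicate block moved the calls for rosiglitazone with E157D to 820 (as reported 533), for the receptors in DMSO to 233 (146) and for the difference of responses to 471 (310). In those comparisons a pair correlated under 0.1, and over all groups 11 of 12 arrays correlated best with an array of their own number. The authors' values gave 867, 229 and 678 in the same order, no background correction 928 and 657 for the first and last, the fit of only the groups compared 88 in DMSO, and median scaling 194 for the last. With arrays left out the counts were 243 to 442, 77 to 116 and 180 to 306, and 1626 to 2285 for the receptors in rosiglitazone. Median scaling put the median of all features at 0.12 in DMSO and 0.17 in rosiglitazone between the receptors, and the share of higher calls at 55.6% (37.7% as reported) and 77.4% (53.2%), and at 77.9% (56.3%) for rosiglitazone with E157D.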
